A study of Mus musculus with 30 samples.

Results

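The 6 genes described here are S1pr1, S1pr4, S1pr5, Ccr7, Klf2 and Cd69, chosen by symbol as genes of T cell egress from the thymus and of homing to lymph nodes, and all 6 were present in the 3 count tables, which share 20730 gene symbols. RNA was sequenced from T cells sorted by flow cytometry from mice of the C57BL/6 strain. CKO mice carried CD4-Cre and floxed Prmt5 on both alleles, and control mice (WT) are labelled wild type. Prmt5 encodes an arginine methyltransferase, and CD4-Cre recombines floxed alleles in thymocytes from the stage at which CD4 is first switched on. No group carried CD4-Cre alone, so Cre and loss of Prmt5 cannot be told apart. Age and sex are not given in the labels. From the thymus came double-positive thymocytes (DP), which carry both coreceptors, and the single-positive (SP) stages that follow, with either CD4 (CD4 SP) or CD8 (CD8 SP), and from the spleen came CD4 and CD8 T cells. Each of these 5 populations had 3 CKO and 3 WT libraries, 30 in all, with thymus DP and CD4 SP cells from the same mice and spleen CD8 and CD4 cells from the same mice.

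T cells leave the thymus and lymphoid organs by following sphingosine 1-phosphate (S1P), a lipid that is plentiful in blood and lymph and scarce in tissue. S1PR1 is the receptor that senses this gradient on naive T cells, KLF2 is a transcription factor that switches on S1pr1, and CD69, induced by activation, binds S1PR1 and takes it off the surface. CCR7 answers chemokines of the thymic medulla and of the lymph node T cell zone, S1PR4 is a further S1P receptor of lymphocytes, and S1PR5 is known as the S1P receptor of natural killer cells and effector T cells.

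The upstream sequences of 3 of the 6 genes were present in the RefSeq promoter table (GRCm38.p6). All 3 are shown because they had an entry, and they were not chosen by their change between genotypes. Ccr7, S1pr1 and Cd69 had no entry and are named only. Each run is the 250 bases before the RefSeq start, 5′ to 3′ on the strand of the gene, and capitals mark CACCC or its reverse complement GGGTG, the core recognised by Krueppel-like factors. The windows are chr8:72318812-72319061 on the plus strand for Klf2, chr9:21248444-21248693 on the minus strand for S1pr5 and chr10:81500138-81500387 on the minus strand for S1pr4.
Klf2: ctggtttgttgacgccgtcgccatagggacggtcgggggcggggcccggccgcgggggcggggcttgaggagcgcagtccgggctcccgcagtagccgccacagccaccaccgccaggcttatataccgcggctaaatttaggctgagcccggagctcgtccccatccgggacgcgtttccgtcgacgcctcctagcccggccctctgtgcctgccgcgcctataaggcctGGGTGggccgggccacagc
S1pr5: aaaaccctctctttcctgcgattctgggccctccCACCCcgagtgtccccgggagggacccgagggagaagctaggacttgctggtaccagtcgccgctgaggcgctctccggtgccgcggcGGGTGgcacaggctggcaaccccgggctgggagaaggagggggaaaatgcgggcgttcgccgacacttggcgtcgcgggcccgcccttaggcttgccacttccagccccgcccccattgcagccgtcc
S1pr4: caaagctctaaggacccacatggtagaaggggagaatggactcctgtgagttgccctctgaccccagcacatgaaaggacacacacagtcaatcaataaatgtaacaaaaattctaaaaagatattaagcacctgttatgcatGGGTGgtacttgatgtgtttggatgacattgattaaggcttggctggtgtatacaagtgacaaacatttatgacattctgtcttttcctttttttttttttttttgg
S1pr5 held 2 matches, and Klf2 and S1pr4 held 1 each. The Klf2 match, at -19 from the RefSeq start, lies within the gene as annotated in GENCODE M21, which starts it at chr8:72319033. Of 32851 promoters in the table, 52% held CACCC on either strand in the same window, so a match is a description and not a site. The forkhead core GTAAACA was found in 3.17% of these promoters and the T-box core TCACACC in 3.33%, and neither was in the windows of these 3 genes.

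In GENCODE M21 on GRCm38 the genes lie at chr8:72319033-72321656 on the plus strand (Klf2) and, on the minus strand, at chr3:115710433-115715072 (S1pr1), chr10:81497747-81500132 (S1pr4), chr9:21242912-21248443 (S1pr5), chr11:99144196-99155077 (Ccr7) and chr6:129267325-129275436 (Cd69). S1pr4 is annotated with a single exon. S1pr5 is overlapped on the opposite strand by the gene model Gm48303, and since the strand setting of the counting is not given, reads of the pair cannot be told apart with certainty.

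Libraries held 11865646 to 35353441 counts. Prmt5 was lower in CKO libraries of all 5 populations without overlap. The log2 difference ran from -0.31 in thymus CD8 SP to -1.09 in DP cells, and passed the test in all but thymus CD4 SP (adjusted p = 0.958). T cell genes were present throughout, and spleen CD4 and CD8 libraries carried the coreceptor of their label. The thymus CD4 SP libraries did not all follow theirs. Cd8a stood at 2328, 44.0 and 954 CPM (counts scaled for library size) in CKO mice 14, 17 and 23 and at 1220, 1105 and 1540 CPM in WT mice 15, 18 and 24, against 2621 to 2817 CPM in DP libraries of CKO mice. The summed level of 8 DP thymocyte markers, Rag1, Dntt and the CD8 coreceptor gene Cd8b1 among them, was 6700, 668 and 3232 CPM in the same CKO libraries. It was 2948 to 5068 CPM in the WT libraries. The library labelled CD4 SP of CKO mouse 14 therefore resembled DP libraries in these genes, that of CKO mouse 17 held the least of them, and the genotype differences in CD4 SP are given with and without each of them.

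The 6 genes ranged widely across the populations. Levels are CPM scaled by TMM within a table, so the tissues stand side by side and were not tested against each other. The plot of levels by library shows S1pr1 and Ccr7 lowest in DP cells and S1pr5 nearly absent from the thymus.

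**Figure D1:**
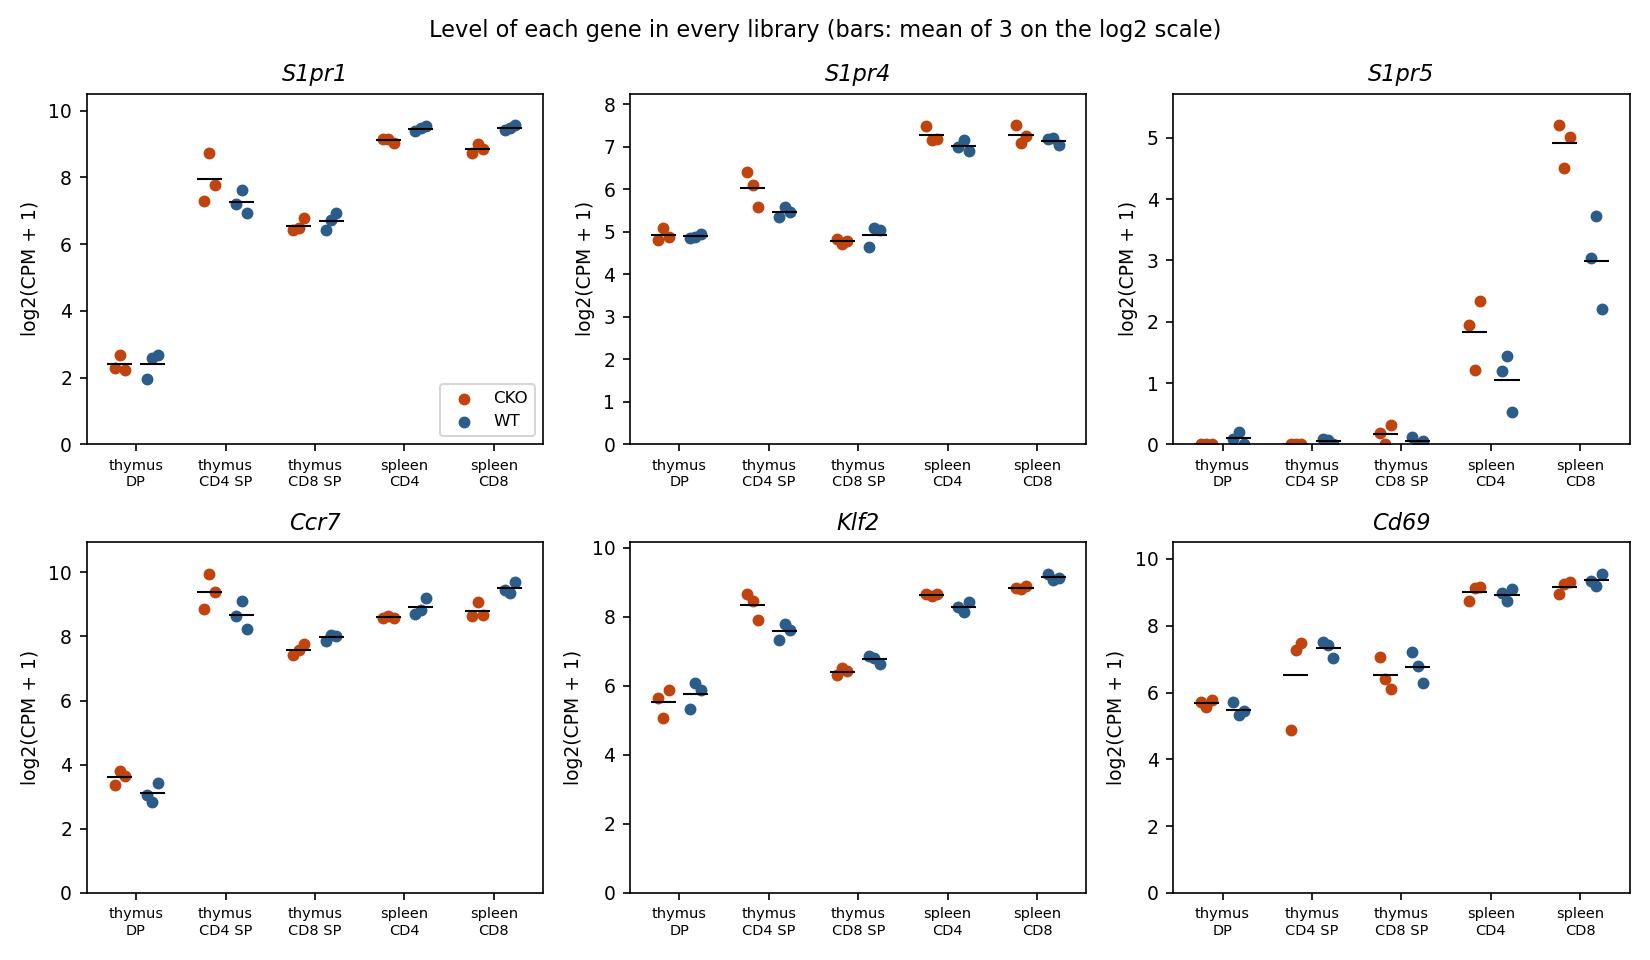
Level of each of the 6 genes in all 30 libraries as log2(CPM + 1), by population, with CKO libraries left of WT libraries; each point is a mouse and each bar the mean of 3 on the log2 scale. S1pr1 is highest in both WT spleen groups, S1pr5 is highest in spleen CD8 cells of CKO mice, and the tables of thymus DP with CD4 SP, thymus CD8 SP and spleen were scaled separately.

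S1pr1 was highest in WT spleen, at 714 ± 33.5 CPM in CD8 cells and 703 ± 38.1 CPM in CD4 cells (SD, n = 3 each), and these neighbours overlapped. It followed in spleen CD4 and CD8 cells of CKO mice without overlap between them, then in the thymus SP groups, each of which overlapped its neighbour, and lay at 4.31 ± 0.912 CPM in CKO and 4.43 ± 1.33 CPM in WT DP cells. Klf2 had the clearest order, with WT spleen CD8 cells first at 567 ± 37.0 CPM, CKO spleen CD8 cells next at 458 ± 12.3 CPM and CKO spleen CD4 cells after them at 400 ± 11.3 CPM, and none of these 3 overlapped another. The next group, CKO thymus CD4 SP cells at 332 ± 85.8 CPM, overlapped CKO spleen CD4 cells above it and WT spleen CD4 cells below it, and both DP groups came last. S1pr4 varied least: its 4 spleen groups spanned means of 130 to 156 CPM with overlap, and its DP and CD8 SP groups means of 26.5 to 29.7 CPM.

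Ccr7 was highest in WT spleen CD8 cells at 726 ± 86.8 CPM, and the next 5 groups overlapped in turn down to CKO spleen CD4 cells at 387 ± 9.47 CPM. Thymus CD8 SP cells followed without overlap, at 193 ± 23.1 CPM in CKO and 251 ± 15.7 CPM in WT mice, and DP cells came last at 11.2 ± 1.92 CPM in CKO and 7.73 ± 1.84 CPM in WT mice. Cd69 was high in all 4 spleen groups, with means of 491 to 661 CPM. Each of these overlapped its neighbour in the order, but WT spleen CD8 cells, the highest, lay above both spleen CD4 groups without overlap. Cd69 was lower in every thymus group, with means of 44.3 to 161 CPM. S1pr5 averaged 29.7 ± 7.22 CPM in CKO spleen CD8 cells, above every other group without overlap. In the thymus it had 0 counts in all 6 CKO libraries of DP and CD4 SP cells, where 3 counts, the limit that a count of 0 allows, equal 0.138 to 0.2495 CPM, and 0 to 7 counts in the other thymus libraries, too few for the tests within a thymus population.

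Per kb of exon, the scale on which genes can be compared, WT spleen CD8 cells held 367 CPM per kb of Ccr7, 307 of Klf2, 234 of S1pr1, 101 of Cd69, 58.9 of S1pr4 and 3.07 of S1pr5. Of the summed S1P receptor transcripts S1pr1, S1pr4 and S1pr5 on this scale, S1pr1 made up 66.3 ± 5.61% in CKO and 79.1 ± 2.14% in WT spleen CD8 cells (SD, n = 3 each). The S1pr5 share was 5.18 ± 1.31% in CKO and 1.04 ± 0.576% in WT spleen CD8 cells, and neither share overlapped between the genotypes. In spleen CD4 cells S1pr1 made up 73.2 ± 2.47% in CKO and 80.8 ± 1.85% in WT mice, again without overlap. In thymus CD8 SP cells the S1pr1 share was 73.2 ± 2.80% in CKO and 73.2 ± 1.79% in WT mice. In DP cells S1pr4 made up 89.8 ± 1.04% in CKO and 89.1 ± 2.78% in WT mice, so most transcripts of these 3 receptors were S1pr4 there. Other S1P receptors were left out of the sum. These shares were not tested beyond the overlap, since 3 mice against 3 cannot give an exact permutation p below 0.10.

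**Figure D2:**
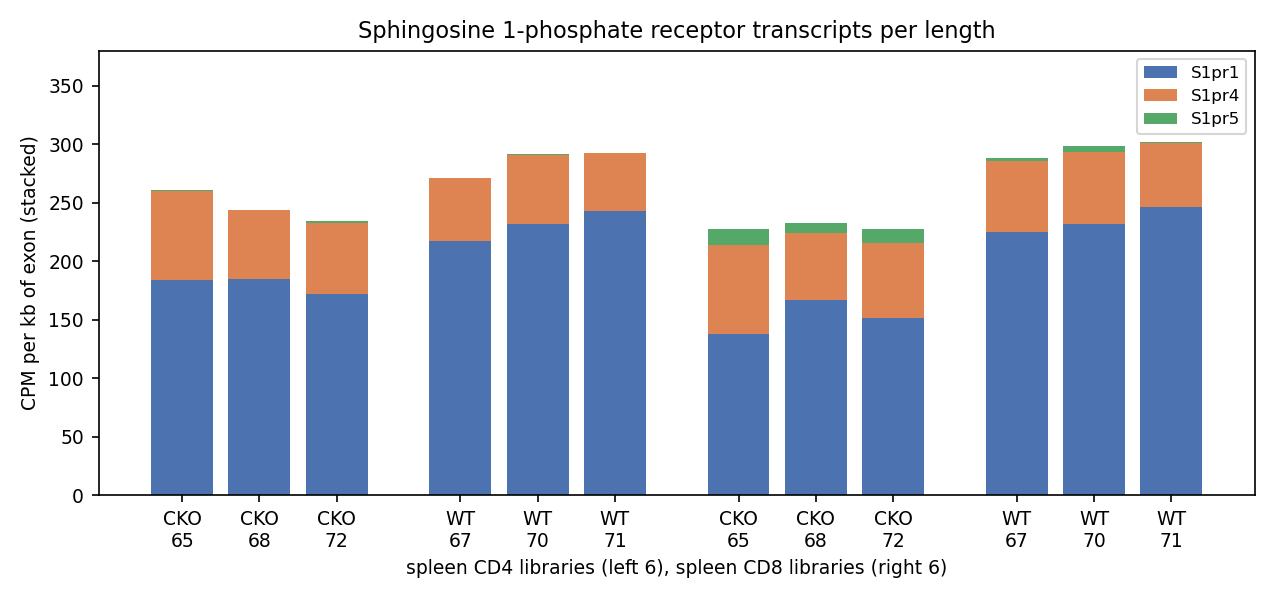
S1pr1, S1pr4 and S1pr5 in CPM per kb of exon, stacked, in each spleen library (CD4 left, CD8 right; CKO left of WT in each; numbers are mice). The S1pr1 part is smaller in each CKO library than in any WT library of the same population, and the S1pr5 part is visible mainly in CKO CD8 libraries.

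In spleen CD8 cells, CKO mice had less S1pr1, Ccr7 and Klf2 and more S1pr5 than WT mice. S1pr1 stood at 421, 509 and 462 CPM in CKO mice 65, 68 and 72, against 685, 706 and 751 CPM in WT mice 67, 70 and 71. Ccr7 stood at 399, 537 and 408 CPM in the CKO mice, against 694, 660.4 and 825 CPM in the WT mice. For both genes the highest CKO library lay below the lowest WT library. S1pr1 fell by 0.62 ± 0.08 on the log2 scale (fold change ± SE; adjusted p = 0.000645 by edgeR's quasi-likelihood test with Benjamini-Hochberg adjustment over all genes tested, threshold 0.05) and Ccr7 fell by 0.69 ± 0.12 (adjusted p = 0.00304). As RNA was taken from bulk sorted cells, fewer cells that express a gene and less RNA per cell cannot be told apart, here and in all results that follow.

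Klf2 stood at 453, 449 and 472 CPM in CKO spleen CD8 cells, against 606, 533 and 562 CPM in WT cells. The groups did not overlap, and Klf2 fell by 0.31 ± 0.07 (adjusted p = 0.0107), the smallest of the 4 changes that passed. S1pr5 stood at 35.9, 21.8 and 31.4 CPM in CKO cells, against 7.24, 12.2 and 3.64 CPM in WT cells, again without overlap. It rose by 1.95 ± 0.33 on the log2 scale (adjusted p = 0.00281). S1pr4 overlapped, with 180.3, 136 and 152 CPM in CKO and 145, 147 and 130 CPM in WT cells (log2 fold change 0.15, adjusted p = 0.334), and so did Cd69, with 499, 605 and 634 CPM in CKO and 645, 586 and 751 CPM in WT cells (-0.19, adjusted p = 0.277). Of the 6 genes 3 were lower and 1 was higher, where 6.22% of 13917 genes tested were lower and 9.83% higher (16.1% either way). The groups of these 4 genes did not overlap, and neither did those of 35.5% of all genes. As the 6 genes were chosen with earlier results of these data known, such shares are for scale only, here and in what follows. These 4 calls held under each of the 12 alternatives, including the loss of any library, with adjusted p up to 0.0434 for Klf2, 0.0253 for S1pr5, 0.0186 for Ccr7 and 0.00554 for S1pr1.

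Markers of other cells were also higher in CKO spleen CD8 libraries. Natural killer cell markers, 8 of 8 detected in each library, summed to 118 to 178 CPM in CKO and 99.1 to 106 CPM in WT libraries, most of it Eomes, which CD8 T cells also express. Their defining receptor Ncr1 stood at 1.54 to 1.84 CPM in CKO and 0.271 to 0.679 CPM in WT CD8 libraries, and at 2.19 to 2.34 CPM in CKO and 0.734 to 1.06 CPM in WT CD4 libraries. Gamma delta T cell markers summed to 19.1 to 24.8 CPM in CKO and 2.41 to 2.94 CPM in WT libraries, with Tcrg-C1 and Tcrg-V6 at 0 in all of them. Myeloid markers, 9 of 9 detected, summed to 45.7 to 71.2 CPM in CKO and 21.4 to 31.4 CPM in WT libraries. B cell markers, 7 of 7 detected, summed to 54.1 to 62.8 CPM in CKO and 32.2 to 40.7 CPM in WT libraries. Cd79a overlapped, at 2.92 to 3.70 CPM in CKO and 2.32 to 4.24 CPM in WT libraries, so the rise of the sum lay in other members of the list. Regulatory T cell markers, 5 of 5 detected, summed to 171 to 190.4 CPM in CKO and 93.3 to 118 CPM in WT libraries, with Foxp3 at 4.11 to 6.49 CPM in CKO and 1.21 to 3.37 CPM in WT libraries. Stroma and endothelium markers lay the other way, at 115 to 145 CPM in CKO and 155 to 172 CPM in WT libraries. Their part in the results of the 6 genes was not tested.

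In spleen CD4 cells, S1pr1 was again lower in CKO mice, but Klf2 was higher. S1pr1 stood at 562, 562 and 524 CPM in CKO mice 65, 68 and 72, against 663, 705 and 740 CPM in WT mice 67, 70 and 71. Klf2 stood at 405, 387 and 407 CPM in CKO mice, against 312, 283 and 347 CPM in WT mice. Neither gene overlapped between the genotypes. S1pr1 fell by 0.35 ± 0.07 (adjusted p = 0.00472), and Klf2 rose by 0.35 ± 0.08 (adjusted p = 0.0109). The Klf2 call was lost without WT mouse 70, at 0.28 with an adjusted p of 0.0594.

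Ccr7 stood at 382, 398 and 381 CPM in CKO spleen CD4 cells, against 418, 453 and 585 CPM in WT cells. The CKO libraries all lay below the WT libraries, and the difference of -0.33 ± 0.10 missed the threshold (adjusted p = 0.0574). DESeq2, which called 16% of genes, called it (adjusted p = 0.0128), as did edgeR without WT mouse 67 (-0.43, adjusted p = 0.0278), where it called 9.26% of genes. S1pr5 stood at 2.87, 1.31 and 4.04 CPM in CKO and 1.30, 1.71 and 0.440 CPM in WT cells, with overlap (1.25 ± 0.49, adjusted p = 0.113). Without CKO mouse 68 its difference was 1.59 with an adjusted p of 0.0410, where 13% of genes passed. S1pr4 (0.26, adjusted p = 0.0995) and Cd69 (0.08, adjusted p = 0.693) overlapped, and the Cd69 difference was -0.01 without WT mouse 70. Of the 6 genes 1 was higher and 1 lower, where 8.53% of 14292 genes tested were higher and 5.63% lower (14.2% either way). S1pr1, Klf2 and Ccr7 did not overlap between the genotypes, and neither did 33% of all genes. Gamma delta T cell markers summed to 4.28 to 6.52 CPM in CKO and 2.57 to 3.70 CPM in WT CD4 libraries. Myeloid markers summed to 122 to 270.4 CPM in CKO and 71.9 to 103 CPM in WT CD4 libraries, B cell markers to 16.2 to 21.6 CPM in CKO and 28.4 to 33.3 CPM in WT libraries, and regulatory T cell markers to 383 to 435 CPM in CKO and 556 to 652 CPM in WT libraries. Their part in these results was not tested.

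**Figure D3:**
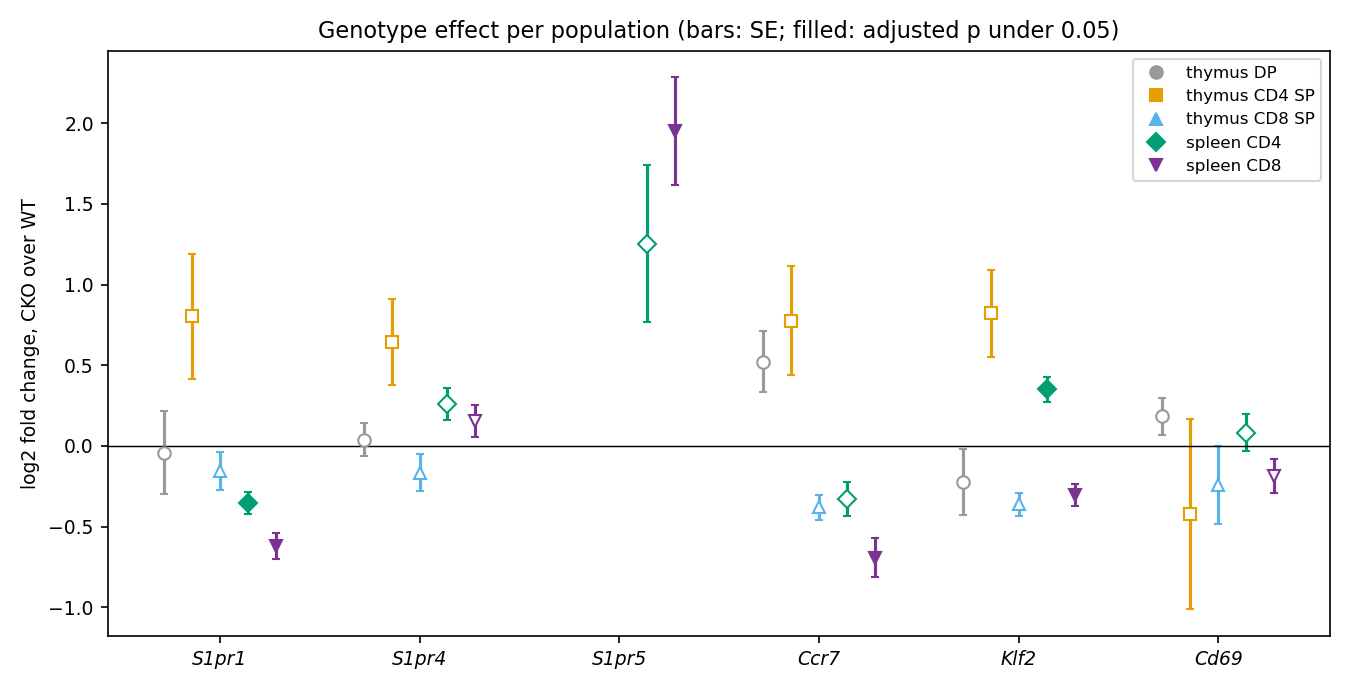
Log2 fold change of CKO over WT with its SE for each gene in each population, filled where the adjusted p was under 0.05; S1pr5 was too low for the test in the thymus. Klf2 is filled below 0 in spleen CD8 cells and above 0 in spleen CD4 cells, and no thymus symbol is filled.

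The genotype effect on Klf2 differed between the spleen populations. The difference of the effects, CD8 minus CD4, was -0.66 ± 0.10 (adjusted p = 0.00257), where 2.56% of 14958 genes differed and 0.749% did so in this direction. It was between -0.73 and -0.58 under the 18 alternatives and passed in each. In the same libraries, paired by mouse, the Klf2 level in CD8 cells over that in CD4 cells was 1.12, 1.16 and 1.16 in CKO mice 65, 68 and 72. It was 1.94, 1.89 and 1.62 in WT mice 67, 70 and 71, so every CKO ratio lay below every WT ratio. With the mouse as a block 7.24% of genes differed, and so did Ccr7 (-0.39, adjusted p = 0.0175), S1pr1 (-0.27, adjusted p = 0.0413) and Cd69 (-0.27, adjusted p = 0.0228), which did not pass without it (adjusted p = 0.418, 0.251 and 0.612). The CD8 over CD4 ratio of Ccr7 was 1.04, 1.35 and 1.07 in CKO mice and 1.66, 1.46 and 1.41 in WT mice. That of S1pr1 was 0.749, 0.905 and 0.881 in CKO mice and 1.03, 1.001 and 1.02 in WT mice. That of Cd69 was 1.17, 1.08 and 1.11 in CKO mice and 1.28, 1.38 and 1.38 in WT mice. All 3 ratios were lower in each CKO mouse than in any WT mouse. The share of all genes with ratios that do not overlap was not computed, so this is a description, for Klf2 as well. The effects on S1pr5 (difference 0.70, adjusted p = 0.777) and S1pr4 (-0.11, adjusted p = 0.875) did not pass either way.

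**Figure D4:**
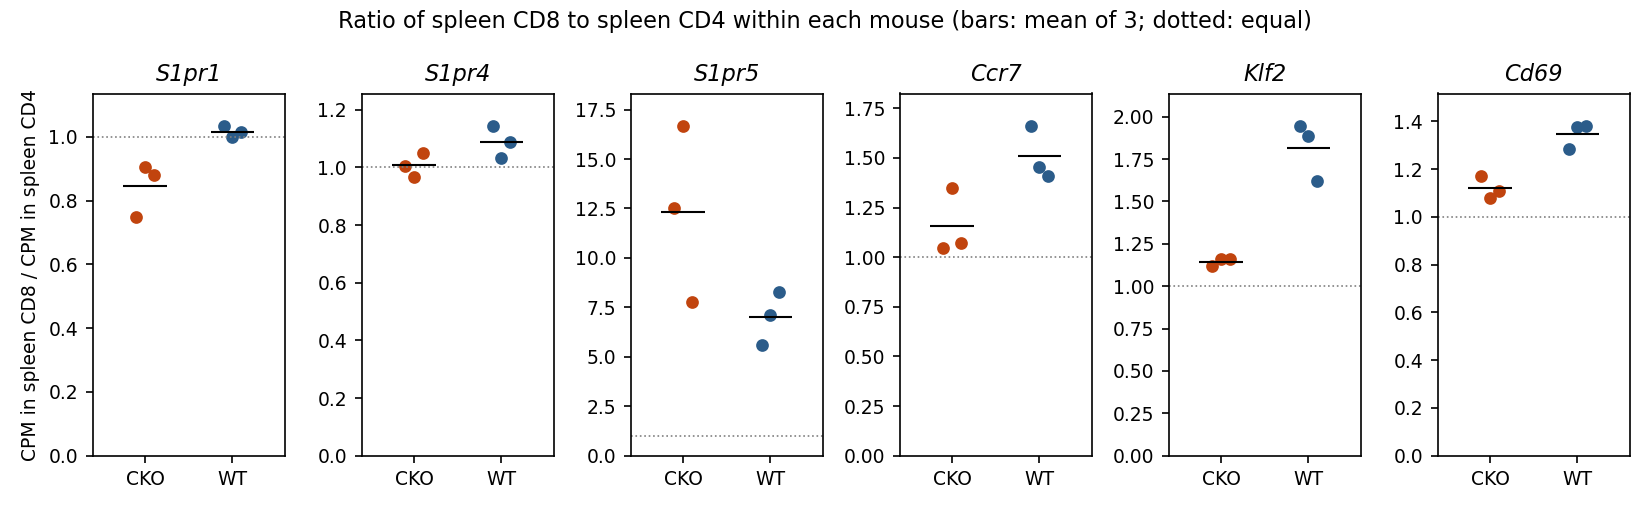
CPM in spleen CD8 cells over CPM in spleen CD4 cells of the same mouse, CKO left of WT, for each gene; points are mice, bars the mean of 3 and the dotted line equal levels. The Klf2 ratios are 1.12 to 1.16 in CKO mice and 1.62 to 1.94 in WT mice.

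Seen as a difference between the populations, WT spleen CD8 cells held more Klf2 (log2 fold change over CD4 cells 0.85 ± 0.07, adjusted p = 4.22e-07), Ccr7 (0.58, adjusted p = 0.00276), S1pr5 (2.74, adjusted p = 0.000518) and Cd69 (0.43, adjusted p = 0.0191) than WT CD4 cells. That is 4 of 6 genes, where 13.1% of all genes were higher in CD8 cells and 26.9% differed. The Cd69 call was lost without WT mouse 67 (0.44, adjusted p = 0.0531) or 70 (0.33, adjusted p = 0.110) in CD4 cells, or 71 (0.32, adjusted p = 0.113) in CD8 cells. In CKO mice S1pr5 was higher in CD8 cells (3.44, adjusted p = 2.84e-05) and S1pr1 was lower (-0.24, adjusted p = 0.0219), where 11% of all genes were higher, 12.7% lower and 23.7% differed. The S1pr1 call was lost without any of 4 CKO libraries, those of mouse 65 (-0.23, adjusted p = 0.0632) and 68 (-0.22, adjusted p = 0.0760) in CD4 cells and of mouse 65 (-0.17, adjusted p = 0.101) and 72 (-0.24, adjusted p = 0.0660) in CD8 cells. With the mouse as a block 5 of the 6 genes passed in CKO mice (33.6% of all genes), Klf2 (0.20, adjusted p = 0.00906; 0.0653 without the block), Cd69 (0.16, adjusted p = 0.0140) and Ccr7 (0.20, adjusted p = 0.0297) as higher among them.

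In the thymus, CD4 SP cells of both genotypes held far more S1pr1 and Ccr7 than DP cells. In CKO mice 14, 17 and 23, S1pr1 stood at 155, 426 and 218 CPM in CD4 SP cells, against 3.88, 5.36 and 3.69 CPM in DP cells. In WT mice 15, 18 and 24 it stood at 147, 194 and 120.0 CPM in CD4 SP cells, against 2.91, 4.97 and 5.39 CPM in DP cells. Every CD4 SP library lay far above every DP library, and S1pr1 was higher by 5.95 in CKO and 5.12 in WT mice on the log2 scale (adjusted p = 2e-05 and 5.9e-05). Ccr7 was higher by 5.98 in CKO and 5.75 in WT mice (adjusted p = 1.58e-05 and 3.77e-05), and Klf2 by 2.84 in CKO and 1.82 in WT mice (adjusted p = 9.61e-05 and 0.00197). S1pr4 was higher by 1.17 in CKO mice (adjusted p = 0.00182), with 0.60 in WT mice (adjusted p = 0.0685). Thus 4 of 5 genes tested were higher in CKO mice, where 12.6% of 12216 genes were (19.5% either way), and 4 of 5 in WT mice, where 9.02% were (11.6% either way).

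Whether Cd69 passed at this step turned on single libraries. The WT difference itself stayed between 1.75 and 1.99 with any library left out. Cd69 stood at 28.1, 154 and 177 CPM in CD4 SP cells of CKO mice 14, 17 and 23, against 51.4, 45.9 and 53.6 CPM in DP cells. In WT mice it stood at 183, 170 and 129 CPM in CD4 SP cells, against 51.7, 38.9 and 42.2 CPM in DP cells. CKO mouse 14 alone had less Cd69 in its CD4 SP library than in its DP library. Cd69 was higher by 1.86 in WT mice (adjusted p = 0.0336), with 1.25 in CKO mice (adjusted p = 0.0946) that became 1.72 without the CD4 SP library of CKO mouse 14 (adjusted p = 6.79e-06), where 43.4% of all genes passed. The WT call was lost with the mouse as a block (1.86, adjusted p = 0.0703) and without any 1 of 8 libraries, 2 of them DP libraries of CKO mice 14 and 17 and 6 those of the WT mice (1.75 to 1.99, adjusted p 0.0505 to 0.131).

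Between genotypes, none of the 5 genes tested passed in DP or CD4 SP cells by edgeR or DESeq2, and 1 in DP cells (7.07% of all genes) and 2 in CD4 SP cells (2.58% of all genes) had an unadjusted p under 0.05. In DP cells, where 0.0258% of 11634 genes passed, the 5 genes tested overlapped, from -0.22 for Klf2 to 0.52 ± 0.19 for Ccr7 (adjusted p from 0.660 to 0.987). In CD4 SP cells 0 of 11839 genes passed (0%), 306 had an unadjusted p under 0.05 and DESeq2 called 1. Klf2 stood at 407, 352 and 239 CPM in CKO mice 14, 17 and 23, against 159, 221 and 196 CPM in WT mice 15, 18 and 24. The CKO libraries all lay above the WT libraries, as did 4.73% of genes, at a log2 difference of 0.82 ± 0.27 (adjusted p = 0.958). It was 0.61 without CKO mouse 14 and 0.80 without CKO mouse 17.

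The other genes of CD4 SP cells followed single libraries more closely. Ccr7 stood at 465, 990.1 and 666 CPM in CKO and 399, 552 and 300.1 CPM in WT mice, with overlap (0.78 ± 0.34). Its difference was 0.98 without CKO mouse 14 and 0.47 without CKO mouse 17. The S1pr1 difference of 0.80 ± 0.39 was 1.05 without CKO mouse 14 and 0.31 without CKO mouse 17. That of S1pr4, 0.65 ± 0.26, was 0.40 without CKO mouse 14 and 0.65 without CKO mouse 17. That of Cd69, -0.42 ± 0.59, was 0.03 without CKO mouse 14 and -0.63 without CKO mouse 17. All of these had an adjusted p of 0.958 with every library in, and none passed without either library. The library with the lowest DP marker sum, CKO mouse 17, had the highest S1pr1 and Ccr7, and the library with the highest sum, CKO mouse 14, had the lowest Cd69 but the highest Klf2 and S1pr4. The part of the marker level in these differences was not tested.

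**Figure D5:**
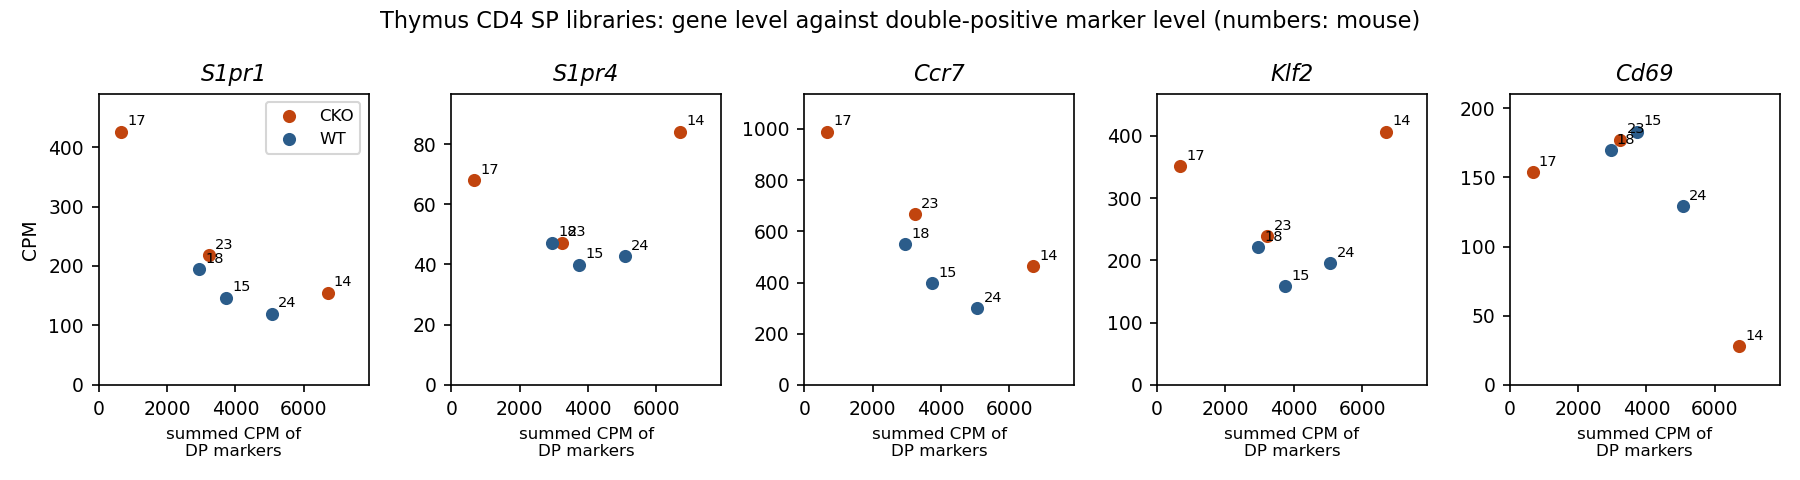
Level of each gene in CPM against the summed CPM of 8 DP thymocyte markers in the 6 thymus CD4 SP libraries; numbers are mice. CKO mice 14 and 17 lie at 6700 and 668 CPM of the markers, outside the WT range of 2948 to 5068 CPM.

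In thymus CD8 SP cells, Ccr7 and Klf2 were below WT in every CKO library but missed the threshold. Ccr7 stood at 171, 189.5 and 217 CPM in CKO libraries 1, 2 and 3, against 234, 264 and 256 CPM in WT libraries 1, 2 and 3. Klf2 stood at 77.8, 90.4 and 84.7 CPM in CKO libraries, against 116, 112 and 97.4 CPM in WT libraries. The differences were -0.38 ± 0.08 for Ccr7 (adjusted p = 0.0959) and -0.36 ± 0.07 for Klf2 (adjusted p = 0.0980). In this population 0.114% of 14911 genes passed, 10.4% had an unadjusted p under 0.05 and 7.68% were lower without overlap. DESeq2, which called 1.84% of the genes it tested, called Ccr7 (adjusted p = 0.000107) and Klf2 (adjusted p = 0.000479). Without CKO library 3 edgeR called Ccr7 (-0.47, adjusted p = 0.0363) and 0.0786% of all genes. With no filter on low counts, where 1.81% of genes passed, edgeR called Ccr7, Klf2 and Cd69 (-0.24, adjusted p = 0.00301 for Cd69). S1pr1 (-0.15), S1pr4 (-0.16) and Cd69 (-0.24) overlapped, with adjusted p of 0.677 to 0.786 with the filter. Cd69 stood at 133, 83.9 and 67.4 CPM in CKO libraries 1, 2 and 3, against 149, 111 and 77.1 CPM in WT libraries 1, 2 and 3, so that the spread within each genotype exceeded the difference between them. DP thymocyte markers summed to 3577 to 3899 CPM in CKO and 3239 to 3612 CPM in WT libraries of CD8 SP cells, with overlap. The list includes the CD8 coreceptor gene Cd8b1, so in CD8 cells its sum does not measure DP cells alone. It was 1116 to 1326 CPM in CKO and 1273 to 1401 CPM in WT spleen CD8 libraries. The part of these markers was not tested. By Xist and Ddx3y, CKO libraries 2 and 3 came from females and the other 4 from males. No WT library came from a female, so with sex in the fit the genotype difference rests on CKO library 1 alone against the WT libraries. These differences were -0.55 for Ccr7, -0.48 for Klf2 and 0.24 for Cd69. They cannot tell sex from the spread between CKO libraries.

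Whether the genotype effect differed between spleen and thymus was tested on the difference of the within-table effects, in which a constant difference between tables cancels. Prmt5 RNA itself fell unequally in CD8 cells, at -0.87 in the spleen and -0.31 in the thymus (difference -0.56, adjusted p = 0.0158 by edgeR). In CD4 cells it was -0.97 in the spleen and -0.99 in the thymus. The part of this in the tissue differences below was not tested. S1pr5, with 0 to 7 counts in the thymus libraries, was too low there to be compared. For CD8 cells none of the other 5 genes passed by edgeR or DESeq2, where 8.08% of 15544 genes did by edgeR, and S1pr1 alone had an unadjusted p under 0.05, as did 22.2% of all genes. S1pr1 came nearest, with an effect of -0.62 in the spleen and -0.15 in the thymus (difference -0.47, adjusted p = 0.0969; -0.59, adjusted p = 0.0359 without WT library 3 of the thymus, where 5.56% of genes passed). The Ccr7 effects of -0.69 in the spleen and -0.38 in the thymus differed by -0.31 (adjusted p = 0.276; -0.47, adjusted p = 0.0407 without spleen CKO mouse 68, where 9.33% of genes passed). The Klf2 effects of -0.31 in the spleen and -0.36 in the thymus differed by 0.05 ± 0.10 (adjusted p = 0.814). For CD4 cells none of the 5 passed by edgeR or DESeq2, where 0.00797% of 12553 genes did by edgeR, and S1pr1 and Ccr7 had an unadjusted p under 0.05, as did 8.83% of all genes. S1pr1 had effects of -0.35 in the spleen and 0.80 in the thymus (difference -1.17, adjusted p = 0.435), and Ccr7 of -0.33 in the spleen and 0.78 in the thymus (difference -1.11, adjusted p = 0.418). Without the CD4 SP library of CKO mouse 14 both passed, at -1.43 for S1pr1 (adjusted p = 0.0295) and -1.32 for Ccr7 (adjusted p = 0.0344), where 456 of 12861 genes (3.55%) passed, against 1 with all libraries. Without that of CKO mouse 17 neither passed, and 0 of 12821 genes did. Over all libraries left out in turn, the difference reached -0.68 for S1pr1 and -0.81 for Ccr7, with edgeR adjusted p up to 0.772 for each. Within the thymus, the effects in CD4 SP and DP cells differed for 0 of 12216 genes by edgeR and by DESeq2 (0%; 263 genes, 2.15%, at an unadjusted p under 0.05).

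Other genes of migration and homing moved beside the 6 in the spleen. In CD8 cells 6 of 13 homing receptors and adhesion genes were higher in CKO mice and 2 lower, with a median log2 fold change of 0.34 against -0.01 for all genes. Of all genes 9.83% were higher and 6.22% lower there, about 1 gene in each direction for a list of 10, and a count near that is no result about a list. The lists were chosen with earlier results of these data known. A count above that share is therefore a description and not a test, here and in the lists below. Among those higher were the integrin subunit Itgb2 (773 CPM in CKO, 504 CPM in WT; 0.62, adjusted p = 0.000349) and the inflammatory chemokine receptor Ccr2 (1.82, adjusted p = 0.00224). Of the other S1P receptors, S1pr2 was measured, at 8.67 CPM in CKO and 5.84 CPM in WT cells (0.57, adjusted p = 0.0333), and that call was lost without any of WT mice 67, 70 and 71 or CKO mice 68 and 72 (0.49 to 0.64, adjusted p 0.0608 to 0.132).

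Of 14 regulators upstream of or beside Klf2, with a median of -0.15, 1 was higher and 3 lower in CKO spleen CD8 cells. The share of all genes to set beside this and the next lists, for scale only, is again 9.83% higher and 6.22% lower. The transcription factors of naive T cells Lef1 (-0.45, adjusted p = 0.00176) and Tcf7 (-0.38, adjusted p = 0.00712) were lower, and Mapk7, the ERK5 kinase that acts upstream of Klf2, was higher (0.58, adjusted p = 0.00219). Of 10 effector genes 8 were higher, with a median of 1.73, among them Tbx21, the T-box factor of effector cells (73.9 CPM in CKO, 28.3 CPM in WT; 1.39, adjusted p = 0.000287), the chemokine Ccl5 (1.66, adjusted p = 0.00039) and the granzyme Gzmb (2.48, adjusted p = 0.00128). Of 10 genes of tissue retention, with a median of 0.57, 4 were higher, with Itga1 (2.75, adjusted p = 2e-05) and Prdm1 (1.53, adjusted p = 0.00123) foremost, and of 10 activation genes, with a median of 0.05, 2 were higher and 1 lower, with Cd44 (0.68, adjusted p = 0.000914) foremost. Of 4 genes of S1P supply and breakdown measured 1 was lower (median 0.03), of 17 genes of signalling and motility 1 was higher (median -0.0034), and of 10 mature single-positive genes 1 was higher and 3 lower (median -0.04). The markers of other cells given for this population moved with these lists too, and their part was not tested.

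In spleen CD4 cells the homing list had 5 higher and 1 lower of 13, with a median of -0.0044 against -0.0057 for all genes. Of all genes 8.53% were higher and 5.63% lower there, again about 1 gene in each direction for a list of 10. Among those higher were the integrin subunits Itgb2 (0.42, adjusted p = 0.00118) and Itgb7 (0.39, adjusted p = 0.00255). Of 14 regulators of Klf2, with a median of -0.04, 3 were higher, Mapk7 (0.66, adjusted p = 0.000678) and the interleukin 7 receptor gene Il7r (0.41, adjusted p = 0.0072) among them. Of 10 activation genes, with a median of -0.43, 4 were lower, with Il2ra (-0.50, adjusted p = 0.00347), also a regulatory T cell marker, and Cd83 (-1.17, adjusted p = 0.00369) foremost. Of 10 effector genes, with a median of 0.54, 3 were higher, with Klrg1 (1.72, adjusted p = 0.000148) and Gzma (1.58, adjusted p = 0.00413) foremost, and of 10 retention genes, with a median of -0.32, 1 was higher, Itgae (1.02, adjusted p = 0.0029), and 2 lower. Of 6 genes of S1P supply, with a median of 0.04, 1 was higher, the S1P exporter Mfsd2b (6.52 CPM in CKO, 3.17 CPM in WT; 1.04, adjusted p = 0.0106). Of 17 genes of signalling 1 was lower (median 0.04), and of 10 mature single-positive genes 4 were higher and 1 lower (median 0.21). Between CD8 and CD4 cells the genotype effects on Itga1 (3.47, adjusted p = 0.000682), Il2ra (1.26, adjusted p = 0.000955) and Prdm1 (1.68, adjusted p = 0.00327) differed in the direction opposite to that on Klf2. In the thymus 0 of 79 genes of these lists tested in DP cells, 0 of 86 in CD4 SP cells and 0 of 89 in CD8 SP cells passed between genotypes by edgeR. At an unadjusted p under 0.05 there were 15 in DP cells (7.07% of all genes), 7 in CD4 SP cells (2.58%) and 18 in CD8 SP cells (10.4%). DESeq2 called 0 in DP cells (0.237% of all genes), 1 in CD4 SP cells (0.00845%) and 6 in CD8 SP cells (1.84%). The ligands of CCR7 were too low to be tested in every comparison.

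The genes whose profile over the 10 group means was most like that of each gene were sought among 10121 genes, by the root mean square difference of centred log2(mean CPM + 1). For S1pr1 the nearest was Gimap4 (0.27), for S1pr5 Heatr9 (0.20) ahead of the killer lectin receptor genes Klre1 (0.34) and Klrc1 (0.37), and for Cd69 Ipcef1 (0.21). Klre1 is also in the list of natural killer cell markers summed above. Ccr7 had no close partner, the nearest being Lfng (0.52), and Klf2 was nearest to Evl (0.30) and S1pr4 to Hcst (0.18). By Pearson's r as the measure, 2 of the 3 nearest genes were kept for S1pr5, 1 each for S1pr1 and Cd69, and 0 for Ccr7, S1pr4 and Klf2.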

How the data were processed

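Per the labels' protocols, poly(A) RNA of sorted cells went into libraries that keep the strand. The authors deposited whole-number counts per gene symbol in 3 tables, made with HISAT2 and HTSeq on GRCm38 per the submitters' processing notes. Versions, gene annotation and strand setting were not given in the sources used here. Each table was filtered (filterByExpr), scaled by TMM and its counts tested with edgeR 4.0.16 (quasi-likelihood, R 4.3.3) over all genes, with Benjamini-Hochberg adjustment and a threshold of 0.05. Effects within 1 population were fitted on its 6 libraries, and those between populations on the 12 libraries of both. DESeq2 1.42.0, limma 3.58.1 (voom with quality weights), other scalings and filters, each library left out and a mouse block were the alternatives. The 6 genes and all lists were chosen with earlier results of these data known. Other genes named are up to 4 members of each list with the smallest p, the 3 nearest genes by profile, and markers. Some genes that this rule names are not reported here.

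The mouse numbers in the labels pair cells of the same mouse. Deviations from the group means of the same mouse correlated at 0.0989 to 0.317 in the spleen, against -0.187 to 0.0109 for different mice, and at 0.0692 to 0.183 in WT and -0.136 to 0.21 in CKO thymus. Thymus CD8 SP libraries carry only replicate numbers, and p-values there measure the spread between these libraries. Intervals were not computed, and the 3-count limit for S1pr5 covers counting error only.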

Additional observations from a re-analysis of the deposited data

Results flagged for a closer look

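The genotype effect on Klf2 differed between the spleen populations by -0.66 on the log2 scale, CD8 minus CD4, in the test of the difference itself (adjusted p = 0.00257 by edgeR).

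Klf2 also differed in opposite directions in other pairs of populations, without overlap between CKO and WT in any of them, and these differences were not tested. The log2 difference of CKO and WT was 0.82 in thymus CD4 SP cells and -0.36 in thymus CD8 SP cells. It was 0.82 in thymus CD4 SP cells and -0.31 in spleen CD8 cells. It was 0.35 in spleen CD4 cells and -0.36 in thymus CD8 SP cells. The values of the thymus did not pass the test between genotypes. Of all genes, 4.73% were higher without overlap in thymus CD4 SP cells and 7.68% lower without overlap in thymus CD8 SP cells. In spleen CD4 and CD8 cells 33% and 35.5% did not overlap in either direction. Of the 6 genes, Klf2 was the gene for which such opposite pairs were found. The share of all genes with such pairs was not computed, so this is a description.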

How the results depend on the processing

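Of the recomputed differences of the 6 genes, 1043 kept their direction and side of the threshold, 38 passed newly, 17 no longer passed and 26 changed sign. Genes called changed as follows. In thymus CD8 SP cells 0 became 2 with DESeq2, 3 with no filter, 1 with the replicate number as a block and 0 to 1 with a library left out. In spleen CD4 cells 2 became 5 with no filter and 1 to 3 with a library left out. For CD8 against CD4 cells of CKO spleen 2 became 5 with the mouse as a block and 1 to 3 with a library left out. For the effect in spleen CD8 minus spleen CD4 cells 1 became 2 with no filter and 4 with the block. For spleen CD8 minus thymus CD8 0 became 2 with no filter and 0 to 1 with a library left out, and for spleen CD4 minus thymus CD4 1 with voom and 0 to 2. The mouse block ended the Cd69 call in WT thymus, added the calls of Ccr7, Klf2 and Cd69 in CKO spleen and of Ccr7, S1pr1 and Cd69 for the spleen effect, and changed no other call of the 6 genes. Replicate numbers of thymus CD8 SP libraries carry no stated pairing; same-numbered libraries correlated at 0.0529 to 0.127, against -0.0974 to 0.00645.

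Signs changed for differences that did not pass with all libraries and the filter; 1 of them, Cd69 in thymus CD8 SP cells, passed with no filter (-0.24, adjusted p = 0.00301). They were S1pr4 in DP cells with voom (-0.034) and Cd69 in thymus CD8 SP cells with sex in the fit (0.24, CKO library 1 alone against WT). With at least 5 CPM in 3 libraries they were S1pr1 (-0.0027) and S1pr4 (-0.015) for CD8 against CD4 cells in WT and CKO spleen. With a library left out, the ranges were -0.28 to 0.14 for S1pr1 and -0.047 to 0.10 for S1pr4 in DP cells, -0.82 to 0.031 for Cd69 in thymus CD4 SP, -0.57 to 0.014 for Cd69 in thymus CD8 SP and -0.012 to 0.21 for Cd69 in spleen CD4 cells. Between spleen CD8 and CD4 cells they were -0.026 to 0.057 for S1pr1 in WT, -0.10 to 0.13 for S1pr4 in CKO and -0.21 to 0.014 for the S1pr4 effect. The thymus CD4 SP minus DP effect on Ccr7 ran from -0.088 to 0.49, and the spleen minus thymus CD8 effect on Cd69 from -0.20 to 0.38; that on S1pr5 (-0.72 to 1.19) rests on thymus counts of 0 to 7 and cannot be read. The cause was not tested.

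Over all genes, calls went to 19 with DESeq2 against 3 in DP cells (1 to 40 with a library left out). In thymus CD8 SP cells they went to 210 with DESeq2 and 450 with no filter against 17 (1 to 48). They went to 636 with DESeq2, 844 with no filter and 1083 with the block against 383 for the spleen difference (244 to 549), and to 178 with DESeq2 and 123 with voom against 1 for spleen CD4 minus thymus CD4. For CD4 SP over DP cells they went to 4214 with voom and 1538 with the block against 2380 in CKO mice, and to 2136 with DESeq2, 5116 with voom and 761 with the block against 1420 in WT mice. Without the CD4 SP library of CKO mouse 14 they were 5381 in CKO and 4402 in WT mice for CD4 SP over DP cells and 456 for spleen CD4 minus thymus CD4; without any 1 other library they ran from 1328 to 2750, from 553 to 2059 and from 0 to 29. They ran from 1085 to 2144 in spleen CD4 (2024 with all) and from 1315 to 2298 in spleen CD8 cells (2234 with all) with a library left out. Counts of 0 to 7 limit S1pr5 in the thymus.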
